A study of Mus musculus with 12 samples.

Results

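The effect of dietary fat on the liver transcriptome was examined over both amino acid diets at once, by setting 6 mice fed a high-fat diet (HF) against 6 mice fed a regular-fat diet (RF), with the amino acid content of the diet as an additive term. All 12 mice of the series entered the comparison, and 14626 of 36047 genes had enough counts to be tested. The animals were adult male C57Bl/6J mice of 5 to 6 months that were housed singly, ate their diet for 7 days and went without food for some hours before tissue collection. The 4 groups of 3 mice were RF.Ctrl, HF.Ctrl, RF.SAAR and HF.SAAR, where SAAR stands for sulfur amino acid restriction. The 4 diets were isonitrogenous and free of cysteine, so the controls also ate no cysteine, and the SAAR diets in addition held less methionine with glutamic acid making up the difference. Fat supplied 18% of energy in the RF diets and 60% in the HF diets. The RF and HF diets were bought from different suppliers, so fat content and the other differences between the 2 formulas cannot be told apart. According to the paper, mice on the HF diets ate fewer grams and so took in less of the essential amino acids. Fat content cannot be told apart from that lower intake either.

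The liver makes fatty acids from carbohydrate through a chain of enzymes: acetyl-CoA is formed from citrate or acetate, carboxylated to malonyl-CoA, built into palmitate, then elongated and desaturated. Transcription of these genes is known to be raised by insulin and carbohydrate through the factors SREBP-1c and ChREBP, and to be lowered by dietary polyunsaturated fat. Dietary fat also brings ligands for PPAR alpha, the nuclear receptor that controls genes of fatty acid oxidation. The comparison asked which genes followed dietary fat alike in Ctrl and SAAR mice, a question for which 3 mice against 3 have little power.

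RNA of whole liver was sequenced after polyA selection, and each library held between 16203094 and 21230092 estimated counts. The summed level of 12 hepatocyte markers was 97125 to 110503 CPM (counts scaled to the library total) in HF mice and 99680 to 121418 CPM in RF mice. A set of 55 transcripts of pancreatic acinar cells, the cells that secrete digestive enzymes, stood apart between libraries and was therefore removed before the library sizes were computed. Their summed level was above 1000 CPM in 4 of 6 HF mice and in 1 of 6 RF mice. It reached 1979 and 6847 CPM in HF.Ctrl mice 1 and 2, 4500 and 22272 CPM in HF.SAAR mice 2 and 3, and 1864 CPM in RF.Ctrl mouse 1, and lay between 51.6 and 111 CPM in the other 7 mice. Summed levels of islet, adipocyte, muscle, bile duct, Kupffer, stellate, endothelial, blood and leukocyte markers overlapped between HF and RF mice. RF.SAAR mouse 3 had the highest islet, adipocyte and muscle sums, at 140, 123 and 1189 CPM. The highest HF mice for these were at 27.3, 80.0 and 880 CPM. The fitted fat effects and the interaction were therefore also computed with the acinar level as a covariate and over the 7 mice at or below 1000 CPM (2 HF and 5 RF). The counts of genes whose HF and RF mice did not overlap were not. The 2 HF mice of low acinar signal were HF.Ctrl mouse 3 and HF.SAAR mouse 1. Each diet thus kept 1 HF mouse in that setting, and its values within a diet rest on that mouse.

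Scd1, the stearoyl-CoA desaturase that makes monounsaturated fatty acids, fell 10.5-fold in HF mice, and Ces1e, a serine hydrolase of the carboxylesterase 1 cluster, fell 1.47-fold. These were the only genes called by edgeR's quasi-likelihood test at a Benjamini-Hochberg adjusted p (padj) under 0.05, which is 0.0137% of the genes tested. No gene was called higher. At an unadjusted p under 0.05 there were 813 genes (5.56%), of which 449 were higher and 364 lower in HF mice. DESeq2 with the same design called 85 of the 14323 genes to which it gave a padj (0.593%), 42 higher (0.293%) and 43 lower (0.3%), so the number of calls rests on the tool. With the acinar covariate, and in the 7 mice of low acinar signal, edgeR called no gene (759 and 577 at an unadjusted p under 0.05).

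The promoters of 4 fatty acid synthesis genes are shown because members of this list had lower values together in HF mice. Each line gives the 250 bases before the transcription start on the gene's own strand, from RefSeq on GRCm38.p6, in lower case with CCAAT or its reverse complement ATTGG in capitals, the letters of the box bound by NF-Y, a factor known to act with SREBP proteins at lipogenic promoters. The windows are chr2:155517793-155518042 on the plus strand for Acss2, chr11:100528001-100528250 on the minus strand for Acly, chr3:129532136-129532385 on the plus strand for Elovl6 and chr11:120824548-120824797 on the minus strand for Fasn.
Acss2: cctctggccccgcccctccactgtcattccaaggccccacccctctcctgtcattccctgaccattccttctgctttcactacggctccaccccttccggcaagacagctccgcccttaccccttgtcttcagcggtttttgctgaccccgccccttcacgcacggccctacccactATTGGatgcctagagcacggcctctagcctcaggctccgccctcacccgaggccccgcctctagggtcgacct
Acly: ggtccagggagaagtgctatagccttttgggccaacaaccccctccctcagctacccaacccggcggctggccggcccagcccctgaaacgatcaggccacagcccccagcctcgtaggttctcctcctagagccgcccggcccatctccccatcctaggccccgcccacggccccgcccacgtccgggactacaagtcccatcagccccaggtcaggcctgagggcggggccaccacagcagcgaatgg
Elovl6: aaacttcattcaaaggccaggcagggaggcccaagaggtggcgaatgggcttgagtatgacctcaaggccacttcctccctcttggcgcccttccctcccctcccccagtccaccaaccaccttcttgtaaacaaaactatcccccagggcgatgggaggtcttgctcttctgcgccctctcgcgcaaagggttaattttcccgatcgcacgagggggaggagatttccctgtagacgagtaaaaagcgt
Fasn: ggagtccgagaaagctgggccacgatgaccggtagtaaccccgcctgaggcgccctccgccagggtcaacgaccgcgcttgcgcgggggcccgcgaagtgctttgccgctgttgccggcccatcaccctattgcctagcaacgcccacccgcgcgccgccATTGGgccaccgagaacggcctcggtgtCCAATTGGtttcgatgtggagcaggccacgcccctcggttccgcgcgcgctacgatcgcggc
Of the 25 lipogenesis genes tested, 20 had a RefSeq promoter, with 29 windows among them. Scd1, the only called member, had none, so these shares leave it out. CCAAT stood on either strand of 14 windows (48.3%), of 33.8% of all 32851 promoter windows and of 35.1% of the 14267 windows of genes tested. In Fasn 3 matches were present, of which a pair overlapped in the run CCAATTGG. The letters TCACNCCAC of a sterol response element stood in 1 window (3.45%), that of Mlxipl, which encodes ChREBP, against 1.05% of all windows. The DR1 direct repeat, a motif of PPAR alpha, stood in 0 of the 29 and in 0.0335% of all windows. A match is a description of letters and not a site, and these matches were not tested against the expression values.

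Scd1 (ENSMUSG00000037071, chromosome 19, 44394455 to 44407879, minus strand, GRCm38) was measured at 69.3, 91.0 and 69.5 CPM in HF.Ctrl mice 1 to 3 and at 30.9, 41.3 and 17.6 CPM in HF.SAAR mice. In RF.Ctrl mice it stood at 1249, 995 and 1081 CPM, and in RF.SAAR mice at 159, 115 and 402 CPM. Every HF mouse lay below every RF mouse, and the HF.SAAR mice were the lowest of all. The log2 fold change was -3.39 (SE 0.37, padj 0.0333). It was -3.85 in Ctrl mice and -2.91 in SAAR mice, a difference of 0.94 that did not pass the interaction test (padj 0.999). Scd1 kept its size with the acinar covariate (-3.48, padj 0.288) and in the 7 mice of low acinar signal (-3.33, padj 0.99999), and the call was lost in both. It was also lost when any of 9 mice was left out (padj 0.0548 to 0.132), and held without HF.SAAR mouse 2, RF.SAAR mouse 1 or RF.SAAR mouse 2 (padj 0.0257, 0.0286 and 0.00555).

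Most other lipogenesis genes had a log2 fold change of the same sign and a smaller size, and none of them passed edgeR's test. Of 25 members tested, 1 was called lower, 23 had a log2 fold change below 0 and 12 of these an unadjusted p under 0.05, against 2.49% of all genes tested. Over all 14626 genes tested, 7472 had a log2 fold change above 0 and 7154 below 0, the background of each list that follows. The median log2 fold change of the list was -0.25, beside 0.00 over all genes. It was -0.50 in Ctrl mice and -0.18 in SAAR mice, -0.42 with the acinar covariate and -0.40 in mice of low acinar signal. DESeq2 called 9 members, all of them lower, against 0.3% of the genes to which it gave a padj.

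**Figure D1:**
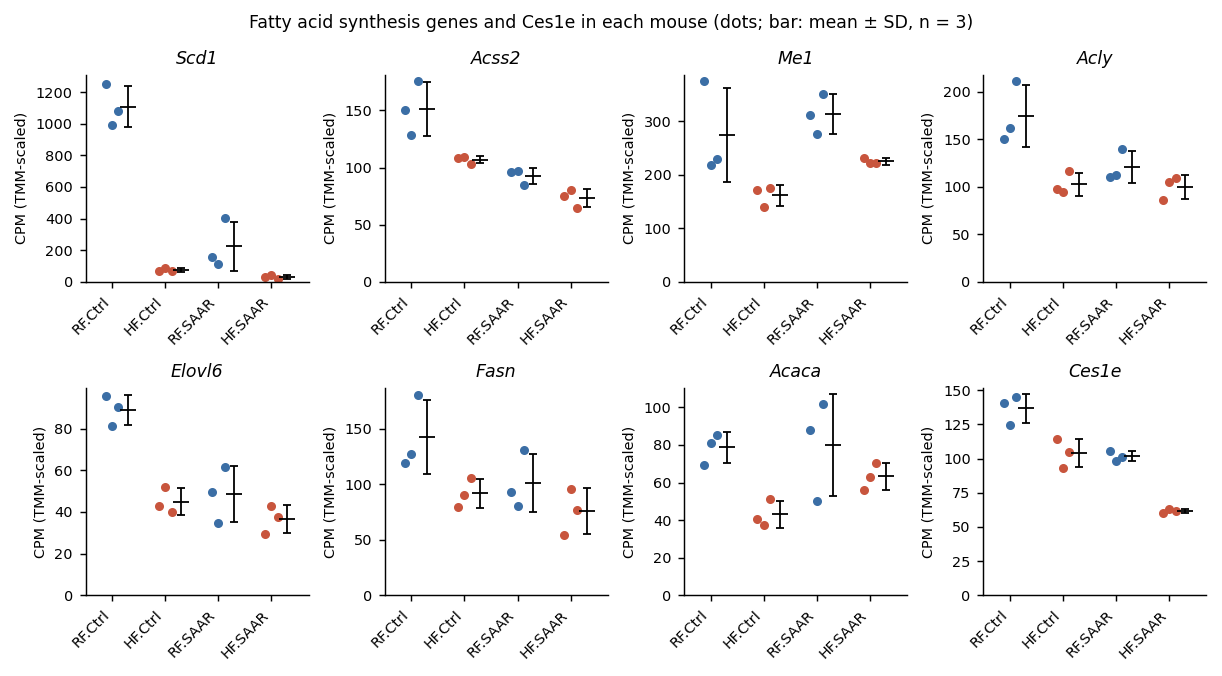
Level of 7 fatty acid synthesis genes and Ces1e in each of the 12 mice, in TMM-scaled CPM on axes that start at 0; dots are mice (blue RF, red HF) and the black bar is the mean ± SD of the 3 mice of a group. The 6 HF mice lie between 17.6 and 91.0 CPM for Scd1, below all RF mice, while for Fasn and Acaca the SAAR mice of both fats overlap.

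Among the enzymes that supply acetyl-CoA and NADPH, Acss2, which makes acetyl-CoA from acetate, stood at 109, 109 and 103 CPM in HF.Ctrl mice against 150, 129 and 176 CPM in RF.Ctrl mice. In HF.SAAR mice it stood at 74.8, 80.2 and 64.8 CPM against 96.4, 96.9 and 84.6 CPM in RF.SAAR mice. The HF mice lay below the RF mice within each diet, with a log2 fold change of -0.42 (SE 0.085, padj 0.140). Me1, the malic enzyme that yields NADPH, was at 171, 140 and 175 CPM in HF.Ctrl and 376, 218 and 230 CPM in RF.Ctrl mice. Its levels were 232, 222 and 222 CPM in HF.SAAR and 313, 276 and 352 CPM in RF.SAAR mice. The mice of each diet did not overlap, and the log2 fold change was -0.62 (SE 0.13, padj 0.168), or -0.40 in the mice of low acinar signal. Acly, which cleaves citrate to acetyl-CoA, ranged over 86.1, 101 and 117 CPM (lowest, median and highest) in HF mice and 111, 145 and 212 CPM in RF mice. The fat groups of each diet were apart for Acly as well, at a log2 fold change of -0.52 (SE 0.12, padj 0.213). Pgd, of the NADPH-yielding pentose phosphate pathway, had a log2 fold change of -0.33 (SE 0.085, padj 0.275).

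Further along the pathway, the HF and RF mice overlapped under SAAR for Fasn, Acaca and Elovl6. Fasn, the synthase of palmitate, ranged over 54.4, 85.1 and 106 CPM in HF and 80.4, 124 and 181 CPM in RF mice, with a log2 fold change of -0.53 (SE 0.16, padj 0.537). Acaca and Acacb, the acetyl-CoA carboxylases, had log2 fold changes of -0.60 (SE 0.17, padj 0.424) and -0.69 (SE 0.19, padj 0.383). For Acacb the difference was -1.22 in Ctrl mice and -0.20 in SAAR mice, with an unadjusted interaction p of 0.000646. The elongases Elovl6, Elovl5 and Elovl3 had log2 fold changes of -0.70, -0.57 and -0.91 (padj 0.194, 0.208 and 0.233). Elovl6 was at 42.9, 52.2 and 39.9 CPM in HF.Ctrl and 95.5, 81.3 and 90.3 CPM in RF.Ctrl mice. In SAAR mice it overlapped between fats, at 29.3, 42.8 and 37.7 CPM in HF.SAAR and 49.5, 34.8 and 61.4 CPM in RF.SAAR mice. The genes of the regulators had small differences: Srebf1 had a log2 fold change of -0.14 (SE 0.15, padj 0.989) and Mlxipl of -0.04 (SE 0.11, padj 0.992).

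Carboxylesterases, hydrolases of esters and lipids in the endoplasmic reticulum, held the other called gene. Of 16 members tested 1 was called lower, against 0.0137% of all genes. At an unadjusted p under 0.05 there were 4 lower and 3 higher, against 2.49% and 3.07% of all genes. Ces1e (ENSMUSG00000061959, chromosome 8, 93201218 to 93229619, minus strand) was at 114, 93.4 and 105 CPM in HF.Ctrl and 141, 124 and 145 CPM in RF.Ctrl mice. It was at 60.4, 63.3 and 61.9 CPM in HF.SAAR and 105, 98.4 and 101 CPM in RF.SAAR mice. The fat groups were apart within each diet, and the log2 fold change was -0.55 (SE 0.079, padj 0.0333). It was -0.39 in Ctrl and -0.72 in SAAR mice (unadjusted interaction p 0.0347, padj 0.999). The size stayed with the acinar covariate (-0.52, padj 0.288) and in mice of low acinar signal (-0.56, padj 0.742), while the call did not. Leaving out 1 of 8 mice also ended it (padj 0.0611 to 0.136), and it held without HF.Ctrl mouse 1, RF.Ctrl mouse 2, RF.SAAR mouse 1 or RF.SAAR mouse 2 (padj 0.0282, 0.0311, 0.0411 and 0.0456). Offsets for effective transcript length also ended the call (-0.54, padj 0.111).

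Its neighbours Ces1d and Ces1f also had lower values in HF mice, by differing amounts. Ces1d, a triacylglycerol hydrolase of lipid droplets and very-low-density lipoprotein assembly, was at 245, 223 and 238 CPM in HF.Ctrl and 294, 248 and 273 CPM in RF.Ctrl mice. In HF.SAAR mice it was at 116, 146 and 110 CPM against 297, 292 and 245 CPM in RF.SAAR mice. All 6 HF mice lay below all 6 RF mice, and the log2 fold change was -0.69 (SE 0.16, padj 0.215). It was -0.21 in Ctrl and -1.16 in SAAR mice, a difference of -0.96 (interaction padj 0.259). Ces1f had a log2 fold change of -0.33 (SE 0.070, padj 0.192) with the fat groups apart in each diet. Ces2c, of the carboxylesterase 2 cluster, went the other way: it was at 60.4, 59.6 and 57.0 CPM in HF.Ctrl and 41.3, 51.4 and 38.6 CPM in RF.Ctrl mice. It was at 39.6, 44.6 and 41.3 CPM in HF.SAAR and 21.1, 18.9 and 31.0 CPM in RF.SAAR mice, giving a log2 fold change of 0.62 (SE 0.12, padj 0.132). Genes of the same cluster are close copies of each other, so the split of reads between them is uncertain.

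A count that makes no use of a variance model was taken beside the test: genes whose 3 HF mice all lay on the same side of the 3 RF mice in each diet. There were 127 such genes with the same direction in both diets (0.868% of those tested), 64 higher (0.438%) and 63 lower (0.431%) in HF mice. In 40 genes the mice were apart in both diets but in opposite directions. Of the 14626 genes tested, the mice were apart in 1251 among Ctrl and in 1475 among SAAR mice, and these comparisons share no mouse. Without any effect of fat, 3 mice lie apart from 3 in about this share of genes. The counts within a diet are therefore no sign of a fat response by themselves. In 29 genes (0.198%) all 6 HF mice were apart from all 6 RF mice, 13 higher and 16 lower. With no effect of fat or amino acid diet, 6 mice lie apart from 6 in about this share of genes. That count is therefore likewise no sign of a fat response by itself. The differences were mostly small, with a median log2 fold change of 0.29 among the 64 higher and -0.51 among the 63 lower genes. Of the 127, 4 higher and 7 lower genes had a fitted difference above 2-fold, and 4 had an unadjusted interaction p under 0.05. The split rests on the scaling: with library size alone it was 31 higher and 93 lower, where the median log2 fold change of all genes was -0.05.

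**Figure D2:**
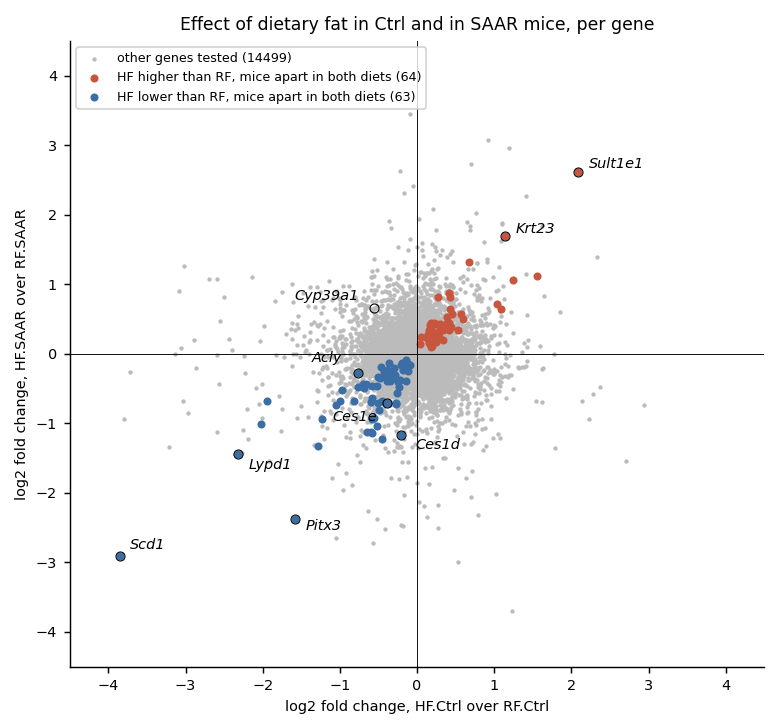
Log2 fold change of HF over RF mice in Ctrl mice (x axis) and in SAAR mice (y axis), one dot per gene tested, with 19 genes beyond 4.5 on either axis not drawn. Red and blue dots are the 64 higher and 63 lower genes whose mice were apart in both diets, and Scd1 lies farthest toward the lower left at -3.85 and -2.91.

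The genes named in the next 3 paragraphs that are in no pathway list were chosen after their values were seen, as those of smallest p among the 127. None of them passed edgeR's test, all passed DESeq2's, and their values are descriptions. Krt23, a type I keratin of epithelial cells, was the nearest to the threshold. It was at 10.2, 7.76 and 8.44 CPM in HF.Ctrl and 4.36, 3.74 and 3.90 CPM in RF.Ctrl mice. In HF.SAAR mice it was at 6.72, 10.3 and 15.7 CPM against 2.14, 4.15 and 3.86 CPM in RF.SAAR mice. All HF mice lay above all RF mice, and the highest value was in HF.SAAR mouse 3, which also had the highest acinar level. The log2 fold change was 1.41 (SE 0.21, padj 0.0527), and 1.06 both with the acinar covariate and in the mice of low acinar signal.

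Enzymes and transporters of drug, retinoid and bile acid metabolism stood among the genes higher in HF mice. Of 68 drug metabolizing enzymes tested none was called. With an unadjusted p under 0.05, 14 were higher and 3 lower, against 3.07% and 2.49% of all genes. Mice were apart in both diets for 4 higher and 1 lower member, against 0.438% and 0.431% of all genes. The median log2 fold change of the 68 was 0.08. Cyp2e1, the cytochrome P450 that oxidizes ethanol and ketone bodies, ranged over 7890.5, 8627 and 10122 CPM in HF mice and 5882, 6665 and 7326 CPM in RF mice. No HF mouse overlapped with an RF mouse, and the log2 fold change was 0.38 (SE 0.070, padj 0.0992), with 0.40 in Ctrl and 0.36 in SAAR mice. Cyp2c50, an epoxygenase of the Cyp2c cluster, was at 793, 768 and 821 CPM in HF.Ctrl and 581, 611 and 631 CPM in RF.Ctrl mice. It was at 586, 641 and 484 CPM in HF.SAAR and 480, 419 and 425 CPM in RF.SAAR mice, giving a log2 fold change of 0.38 (SE 0.074, padj 0.132). Rdh9, a retinol dehydrogenase, had a log2 fold change of 0.55 (SE 0.10, padj 0.117), with 99.995, 109 and 148 CPM in HF against 70.8, 81.0 and 91.5 CPM in RF mice and no overlap. Its difference was 0.27 in Ctrl and 0.82 in SAAR mice (unadjusted interaction p 0.00300, padj 0.999). Abcc3, which exports bile acids and conjugates across the basolateral membrane, was at 128, 153 and 184 CPM in HF and 97.2, 119 and 126 CPM in RF mice. The mice were again apart, at a log2 fold change of 0.41 (SE 0.10, padj 0.233). Cyp3a11, the main xenobiotic-metabolizing P450 of mouse liver, was the member apart in the other direction, at -0.86 (SE 0.20, padj 0.233). It ranged over 231, 356 and 610 CPM in HF and 311, 707 and 890 CPM in RF mice, so the fat groups overlapped once the diets were joined.

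**Figure D3:**
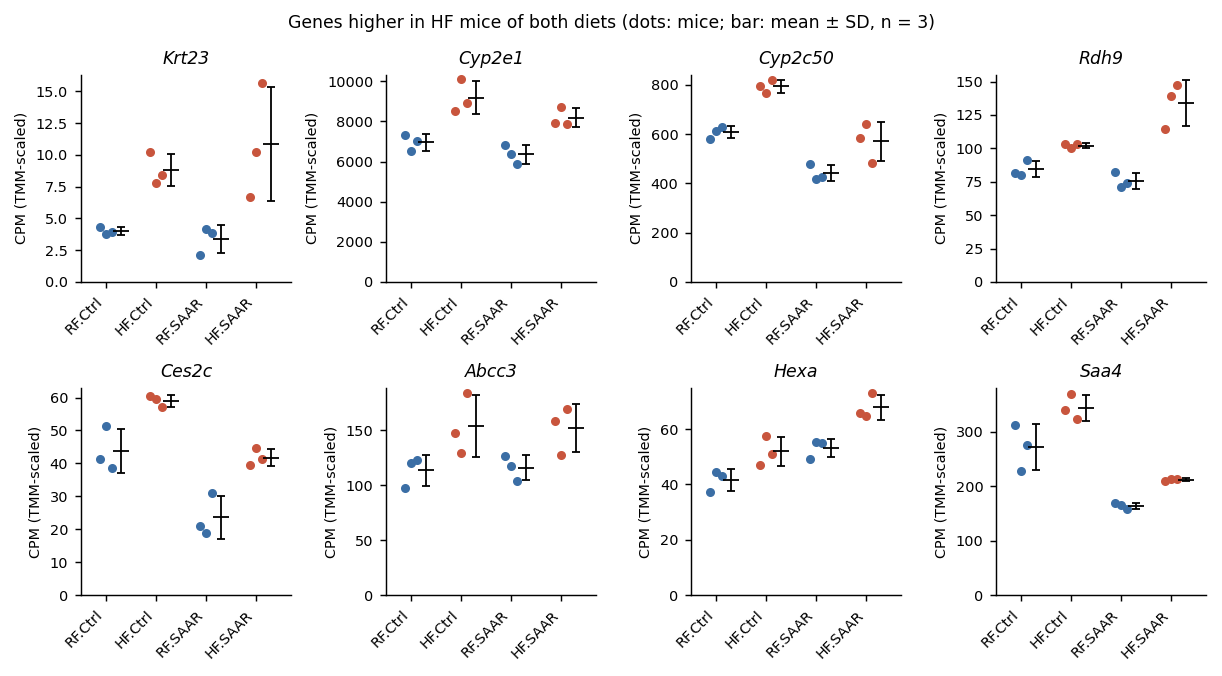
Level of 8 genes that were higher in HF than RF mice within each diet, in TMM-scaled CPM on axes that start at 0; dots are mice (blue RF, red HF) and the black bar is the mean ± SD of 3 mice. Cyp2e1 lies between 7890.5 and 10122 CPM in HF mice and between 5882 and 7326 CPM in RF mice.

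Other genes higher in HF mice of both diets were of mixed function. Saa4, the constitutive serum amyloid A carried on HDL, stood at 339, 370 and 323 CPM in HF.Ctrl and 313, 228 and 275 CPM in RF.Ctrl mice. It stood at 210, 214 and 213 CPM in HF.SAAR and 169, 165 and 158 CPM in RF.SAAR mice, giving a log2 fold change of 0.36 (SE 0.076, padj 0.183). Rtn4, a reticulon that shapes the endoplasmic reticulum, ranged over 88.5, 97.9 and 116 CPM in HF and 70.5, 77.3 and 87.6 CPM in RF mice, at 0.36 (SE 0.081, padj 0.192) and with no overlap. Cebpe, of the C/EBP family of transcription factors, and Prkcz, an atypical protein kinase C, had log2 fold changes of 0.46 (SE 0.092, padj 0.140) and 0.39 (SE 0.086, padj 0.192). BC024139 had a log2 fold change of 0.53 (SE 0.12, padj 0.192) over all mice and of 0.21 in the mice of low acinar signal. Its gene overlaps Eppk1 on the same strand, which held 1772 counts over the 12 mice against 1729 for BC024139. Sult1e1, the estrogen sulfotransferase, had the largest fitted difference among the 64 higher genes, 2.38 on the log2 scale, at no more than 2.20 CPM in any mouse.

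Genes with lower values in HF mice outside lipogenesis were of mixed function as well. Col27a1, a fibrillar collagen chain, was at 26.7, 20.3 and 27.5 CPM in HF.Ctrl and 38.8, 30.7 and 43.4 CPM in RF.Ctrl mice. It was at 8.23, 8.09 and 7.95 CPM in HF.SAAR and 15.5, 10.9 and 12.9 CPM in RF.SAAR mice, giving a log2 fold change of -0.65 (SE 0.11, padj 0.0967). Carmil1, a regulator of actin capping, had a log2 fold change of -0.76 (SE 0.13, padj 0.0967), Cd9, a tetraspanin, of -0.57 (SE 0.10, padj 0.0992) and Slco2a1, a prostaglandin transporter, of -0.37 (SE 0.076, padj 0.140). Slco2a1 ranged over 28.2, 34.0 and 35.7 CPM in HF and 36.9, 42.4 and 47.7 CPM in RF mice, with no overlap. Fam198a stood at -1.30 (SE 0.25, padj 0.132) over all mice and at -0.87 with the acinar covariate. Pitx3, known as a transcription factor of lens and dopamine neurons, had a log2 fold change of -2.02 (SE 0.36, padj 0.0992) at 0.411 to 0.860 CPM in HF and 0.549 to 5.10 CPM in RF mice. Its gene overlaps Elovl3 on the opposite strand, which held 51710 counts over the 12 mice against 325 for Pitx3, and reads of the 2 genes may not be separable without strand. Elovl3 was itself at 129 to 206 CPM in HF and 204 to 461 CPM in RF mice. Of the 37 named genes, 11 overlapped another gene with counts. For 2 of these, Pitx3 and Abcg5, the gene on the opposite strand held more counts.

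Genes of fatty acid oxidation and ketogenesis, which PPAR alpha controls, gave no call. Of 55 members tested 39 had a log2 fold change above 0, against 7472 of all 14626 genes. With an unadjusted p under 0.05, 8 were higher and 1 lower, against 3.07% and 2.49% of all genes. In 1 member the mice were apart in the same direction in both diets, against 0.868% of all genes. The median was 0.07, with 0.18 in Ctrl and -0.04 in SAAR mice, and 0.00 with the acinar covariate. The smallest p belonged to Vnn1, a pantetheinase and known PPAR alpha target. It was at 67.4, 70.7 and 79.9 CPM in HF.Ctrl and 54.4, 39.5 and 34.5 CPM in RF.Ctrl mice, whereas in SAAR mice RF.SAAR mouse 2 (83.6 CPM) stood above the 72.7, 79.4 and 79.0 CPM of the HF mice. The log2 fold change was 0.54 (SE 0.15, padj 0.390). Cyp4a10, a fatty acid omega-hydroxylase, had a value of 0.90 (SE 0.29, padj 0.606), with 136, 290 and 795 CPM in HF and 50.4, 178 and 534 CPM in RF mice. Cpt1a, which admits fatty acids to mitochondria, had a log2 fold change of 0.11 (SE 0.084, padj 0.987).

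Of 42 genes of fatty acid uptake and lipid droplets none was called, with a median log2 fold change of 0.02. Cd36, the fatty acid translocase, was at 65.8, 51.6 and 76.9 CPM in HF.Ctrl and 61.8, 44.2 and 38.4 CPM in RF.Ctrl mice. It was at 103, 108 and 94.9 CPM in HF.SAAR and 70.1, 77.3 and 77.7 CPM in RF.SAAR mice. The HF mice were apart from the RF mice under SAAR alone, and the log2 fold change was 0.43 (SE 0.11, padj 0.291). Cholesterol synthesis, the other branch of SREBP targets, had 13 of 26 members above 0 and 13 below. At an unadjusted p under 0.05, 2 were lower and 0 higher, against 2.49% and 3.07% of all genes. The median was -0.02, which was -0.07 with the acinar covariate and -0.19 in mice of low acinar signal. The smallest p of this list was that of Acat2, an acetoacetyl-CoA thiolase, at -0.26 (SE 0.083, padj 0.537). Among 28 apolipoprotein and lipoprotein genes the median was 0.10, with 0.03 in Ctrl and 0.20 in SAAR mice, 0.02 with the acinar covariate and 0.0025 in mice of low acinar signal. Abcg5, a sterol exporter into bile, stood at 0.23 (SE 0.071, padj 0.526). Its gene overlaps Abcg8 on the opposite strand, which held 30094 counts over the 12 mice against 21196 for Abcg5.

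The remaining lists held no call. The 25 genes of bile acid synthesis and transport had a median log2 fold change of 0.02, the 33 of gluconeogenesis and glycolysis of -0.04, the 23 of the insulin and growth hormone axis of 0.08 and the 28 male- and female-biased genes of 0.05. The 62 genes of amino acid catabolism and the urea cycle had a median of 0.03. With an unadjusted p under 0.05, 6 were higher and 5 lower, against 3.07% and 2.49% of all genes. Csad, which decarboxylates cysteine sulfinate on the route from cysteine to taurine, was at 105, 134 and 92.3 CPM in HF.SAAR and 342, 357 and 275 CPM in RF.SAAR mice. In Ctrl mice it overlapped, at 85.0, 86.4 and 44.1 CPM in HF.Ctrl and 150, 72.0 and 140 CPM in RF.Ctrl mice, and the pooled log2 fold change was -1.15 (SE 0.25, padj 0.208). Pdk2 and Bcl6, the members of smallest p in the glycolysis and growth hormone lists, stood at 0.22 (SE 0.081, padj 0.666) and 0.49 (SE 0.21, padj 0.855). The 38 acute phase and complement genes had a median of 0.01 and the 24 circadian clock genes of 0.17, with Bhlhe40, a repressor of the clock, at 0.48 (SE 0.17, padj 0.666). Of 76 cytosolic ribosomal protein genes 67 had a log2 fold change above 0, none at an unadjusted p under 0.05. Their median was 0.06 over all mice, -0.10 in Ctrl and 0.24 in SAAR mice, and -0.16 in mice of low acinar signal, so its sign depended on the mice used. Rpl5 had the smallest p among them, at -0.12 (SE 0.091, padj 0.987).

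Genes of the integrated stress response, which cells switch on when amino acids are short, gave no call. The 19 members had a median log2 fold change of 0.11, with 4 higher at an unadjusted p under 0.05, against 3.07% of all genes. The median was -0.10 in Ctrl and 0.67 in SAAR mice, and -0.02 with the acinar covariate and -0.03 in mice of low acinar signal. Psat1, of serine synthesis, stood at -1.22 in Ctrl and 0.67 in SAAR mice (unadjusted interaction p 0.00960), and Mthfd2, of mitochondrial folate metabolism, at -1.61 and 0.74 (unadjusted interaction p 0.000136), both named after their values were seen, and neither passed the interaction test. Gadd45b stood at 0.79 (SE 0.27, padj 0.605) over all mice and at 0.12 in mice of low acinar signal. Nupr1, a stress gene first described in inflamed pancreas, stood at 1.87 (SE 0.66, padj 0.688) and at 0.23. Of 26 chaperone and quality control genes of the endoplasmic reticulum 1 was higher at an unadjusted p under 0.05, against 3.07% of all genes. This was Derl3, of protein retrotranslocation. The median of the 26 was -0.04, and -0.08 both with the acinar covariate and in mice of low acinar signal. Derl3 was at 3.90, 3.68 and 4.40 CPM in HF.Ctrl and 2.64, 3.18 and 1.65 CPM in RF.Ctrl mice, and at 2.53, 1.87 and 4.54 CPM in HF.SAAR and 1.12, 1.22 and 1.24 CPM in RF.SAAR mice. The fitted log2 fold change of 0.98 (SE 0.24, padj 0.233) was 0.81 with the acinar covariate and 0.97 in mice of low acinar signal.

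**Figure D4:**
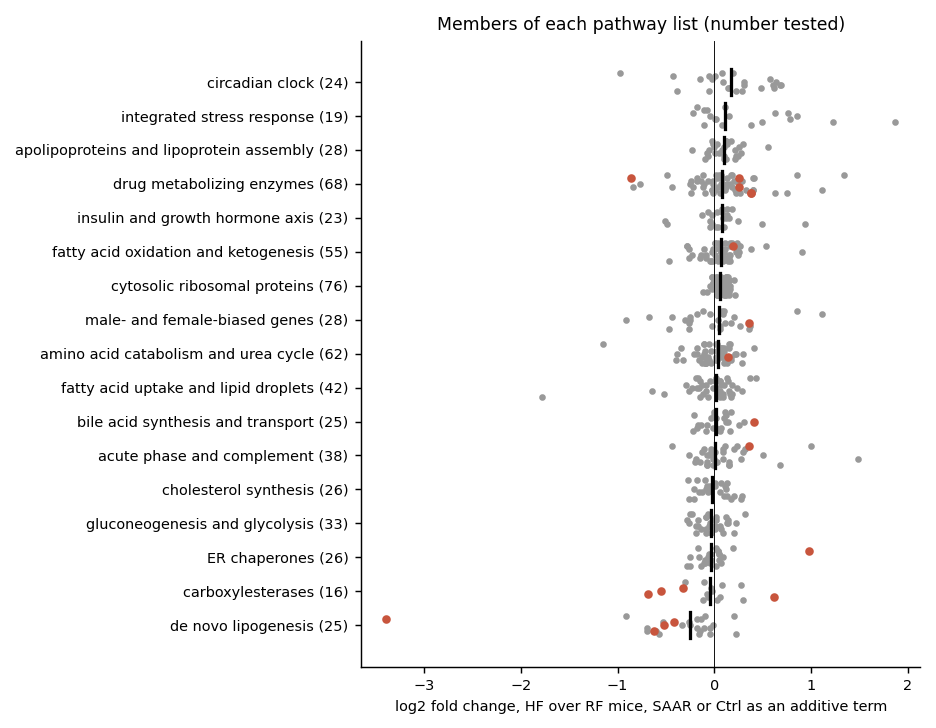
Log2 fold change of HF over RF mice for each tested member of 17 pathway lists (dots), with the median of the list as a black bar and members whose mice were apart in both diets in red. The median lies at -0.25 for de novo lipogenesis and between -0.05 and 0.17 for the other lists.

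The fat effect differed between the amino acid diets in 1 gene by edgeR's interaction test (0.00684% of the genes tested; 461 at an unadjusted p under 0.05, 3.15%). Cyp39a1, the oxysterol 7-alpha-hydroxylase of an alternative bile acid pathway, was at 12.3, 11.6 and 11.4 CPM in HF.Ctrl and 18.2, 17.9 and 15.7 CPM in RF.Ctrl mice. It was at 131, 143 and 140 CPM in HF.SAAR and 94.3, 87.2 and 79.5 CPM in RF.SAAR mice. HF mice lay below RF mice in Ctrl and above them in SAAR, with log2 fold changes of -0.56 and 0.66 and a difference of 1.22 (SE 0.14, padj 0.00917). The difference was 1.18 (padj 0.0239) with the acinar covariate. In the mice of low acinar signal, where each diet held 1 HF mouse, it was 1.13 and the call was lost. Cyp39a1 also lost its call without HF.Ctrl mouse 2 (1.21, padj 0.0511) or RF.Ctrl mouse 2 (1.19, padj 0.0612). The pooled fat effect of Cyp39a1 was 0.10 (SE 0.19, padj 0.989). Within diets the test called 0 genes between HF.Ctrl and RF.Ctrl (521 by unadjusted p under 0.05) and 8 genes (0.0547%) between HF.SAAR and RF.SAAR (777), of which 7 had an unadjusted pooled p under 0.05. With the dispersion estimated from the mice of 1 diet alone, edgeR called 3 genes lower in Ctrl mice (0.0205%), Scd1 (-3.86, padj 5.43e-06), Chrna4 (-3.03, padj 0.0446) and Ugt1a5 (-0.99, padj 0.0446), and 5 genes in SAAR mice (0.0342%). Those 5 were Mt1 and Mt2, which were higher, and Csad, Ces1d and Igtp, which were lower. Ugt1a5 shares exons with the other Ugt1a genes, so its share of reads is uncertain. Scd1 had a padj of 0.148 in Ctrl mice when the spread was shared by all 12 mice.

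**Figure D5:**
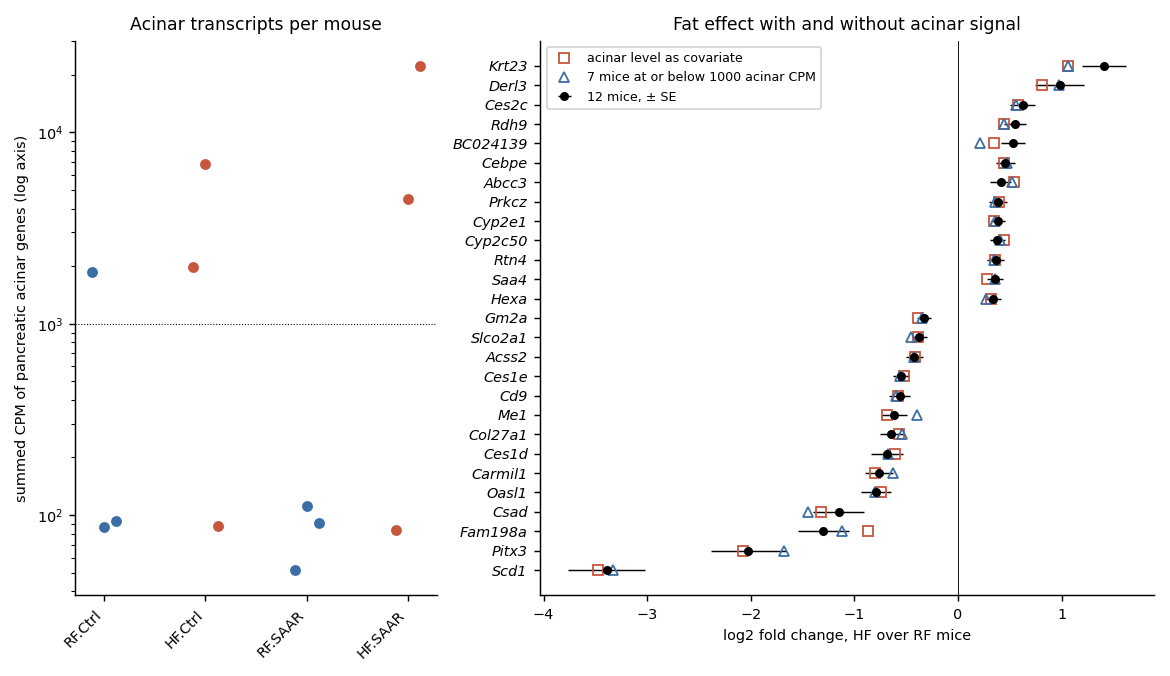
Left, summed CPM of 55 pancreatic acinar genes in each mouse on a log axis, with a dotted line at 1000 CPM: 4 of 6 HF and 1 of 6 RF mice lie above it. Right, log2 fold change of HF over RF mice for 27 named genes with the SE over 12 mice (black), with the acinar covariate (squares) and in the 7 mice of low acinar signal (triangles): signs stay, and Scd1 lies at -3.39, -3.48 and -3.33.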

How the data were processed

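Liver RNA of 12 mice was sequenced as paired reads after polyA selection. The authors trimmed the reads with cutadapt, checked them with FastQC and quantified them with kallisto, and deposited per transcript an estimated count, a TPM value and an effective length. The authors' annotation was Ensembl on GRCm38, and their own tests used DESeq2. From the deposited estimated counts, transcripts were summed per gene with GENCODE M21 (116816 of 118489 transcripts matched, with 0.704% to 1.80% of counts unmatched) and rounded. The deposited TPM values were not used in a test, and the deposited effective length, a transcript length in bases, served as an offset in an alternative. The strand setting of the quantification is not given in the sources used here.

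The 55 acinar genes were removed, genes were kept by filterByExpr over the 4 groups (minimum count 10), and levels are CPM scaled by TMM factors. edgeR 4.0.16 in R 4.3.3 (glmQLFit robust, glmQLFTest) tested fat with SAAR or Ctrl as an additive term, and the interaction in a second fit. p-values were adjusted by Benjamini-Hochberg over all 14626 genes and a padj under 0.05 was called. DESeq2 1.42.0 and limma-voom 3.58.1 were alternatives, beside other normalizations, filters, models and mice left out. The log2 fold changes are edgeR's fitted values, the SE is the fold change over the root of F, and p-values measure the spread between mice. Counting error is small beside the spread between mice except for genes near 1 CPM. The tests were tried on simulated counts.

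Named genes were the called genes (at most 12 in each direction), the members of smallest p in each of 17 pathway lists (3 called members, or else 1), Scd1, Ces1d and genes called for the interaction; others were added after their values were seen, and a few genes are not reported here. The members and lists were chosen with earlier results of these data known. Mice are numbered within a group in accession order, which pairs no mice.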

Additional observations from a re-analysis of the deposited data

Results flagged for a closer look

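The fat effect on Cyp39a1 differed between SAAR and Ctrl mice by 1.22 on the log2 scale, the one gene past edgeR's interaction test (padj 0.00917). All 3 HF mice lay below the RF mice in Ctrl and above them in SAAR.

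Pancreatic acinar transcripts, which were kept out of the fat test, were above the highest RF mouse (1864 CPM) in 4 of 6 HF mice. Their summed level was 1979 CPM in HF.Ctrl mouse 1, 6847 CPM in HF.Ctrl mouse 2, 4500 CPM in HF.SAAR mouse 2 and 22272 CPM in HF.SAAR mouse 3. The other 2 HF mice were at 87.3 and 83.1 CPM, inside the range of the RF mice, so the HF and RF mice overlapped.

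For the 37 named genes, the gap of the highest or lowest mouse was compared with the range of 6 HF or 6 RF mice after centring on the group means. None of 74 such sets passed Dixon's 95% critical value. Centring ties the mice of a group to each other, so an outlying mouse also shifts its group mates and widens the range. The critical value could therefore hardly be reached. This count cannot show whether the values of a named gene rest on a single outlying mouse.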

How the results depend on the processing

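The fat effect called 0 genes higher and 2 lower. The count called higher was 1 with RLE factors, 2 without a low-count filter, 1 with at least 10 counts in every mouse, 42 with DESeq2, 2 from the mean of the within-diet contrasts and 2 in SAAR mice alone. The count called lower was 8 without a filter, 43 with DESeq2, 4 from the mean of the contrasts, 1 with effective length offsets, 0 with the acinar covariate and 0 without the mice above 1000 acinar CPM. Leaving out 1 mouse gave 0 to 1 higher and 0 to 6 lower. The cause of these changes was not tested. Library size alone left 31 genes higher with mice apart in both diets, and leaving out 1 mouse, which makes the criterion easier to meet, gave 88 to 144 higher and 80 to 123 lower. The interaction called 16 genes with DESeq2 and 0 to 2 with 1 mouse left out. The interaction in the mice of low acinar signal was an alternative added after seeing the data. Each diet held 1 HF mouse there, so its values, such as 2.25 for Gstm3, rest on 1 HF mouse per diet. Of 961 values of the 37 named genes under alternatives 888 kept direction and call, 44 gained a call (25 of them with DESeq2) and 25 lost one. The 4 reversals were in genes with no fat call: Cyp39a1 at -0.0358 with the acinar covariate, -0.559 in Ctrl mice alone and -0.00613 to 0.194 with 1 mouse left out (below 0 without RF.SAAR mouse 3), and Rpl5 at 0.0434 in SAAR mice alone. Of 546 list medians 522 moved by less than the spread between mice. A list of acinar genes without 6 that other cells express gave a 50.1-fold ratio of HF to RF medians against 35.2-fold. The criterion of mice apart in both diets was not computed for DESeq2, limma-voom, the covariate, the offsets, 1 diet alone or the low-acinar mice, which change no count level or leave too few mice. No paired analysis was possible because the labels give no replicate numbers. Depth limits the genes near 1 CPM, and fat level cannot be told apart from diet supplier or from amino acid intake.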

Other observations

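These gene groups were put together after the values of the fat comparison had been seen, and they are described with no test of the group. Interferon-induced genes, which are switched on by type I and II interferons, had lower values in HF mice. Of 64 tested, 57 had a log2 fold change below 0, against 7154 of all 14626 genes, and none was called. At an unadjusted p under 0.05, 22 were lower and 0 higher, against 2.49% and 3.07% of all genes. The median was -0.29, with -0.10 in Ctrl and -0.43 in SAAR mice, and -0.36 in mice of low acinar signal. Oasl1, of the oligoadenylate synthetase family, was at 6.23, 5.69 and 5.93 CPM in HF.Ctrl and 7.98, 8.46 and 9.21 CPM in RF.Ctrl mice. It was at 5.97, 4.05 and 7.47 CPM in HF.SAAR and 13.0, 11.1 and 12.2 CPM in RF.SAAR mice, all HF mice below all RF mice, at a log2 fold change of -0.79 (SE 0.14, padj 0.0992). Stat2, which carries the type I interferon signal, stood at -0.30 (SE 0.065, padj 0.192) with the mice apart in both diets. Igtp, an interferon-induced GTPase, was at 24.7, 23.2 and 27.2 CPM in HF.SAAR and 48.7, 43.0 and 45.4 CPM in RF.SAAR mice but overlapped in Ctrl mice.

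Among 53 lysosomal enzyme genes 38 had a log2 fold change above 0, against 7472 of all 14626 genes, with a median of 0.04. That median was -0.0097 in Ctrl and 0.096 in SAAR mice, 0.015 with the acinar covariate and 0.0066 in mice of low acinar signal. At an unadjusted p under 0.05, 4 were higher and 2 lower, against 3.07% and 2.49% of all genes. Hexa, which takes part in the breakdown of gangliosides, had a log2 fold change of 0.34 (SE 0.073, padj 0.192). Gm2a, the activator protein of the same breakdown, had a log2 fold change of the other sign, -0.33 (SE 0.066, padj 0.140). Hexa was at 47.0, 57.6 and 51.1 CPM in HF.Ctrl and 37.1, 44.6 and 43.2 CPM in RF.Ctrl mice, and at 66.0, 64.6 and 73.1 CPM in HF.SAAR and 49.2, 55.3 and 54.8 CPM in RF.SAAR mice. Gm2a was at 37.9, 42.9 and 40.4 CPM in HF.Ctrl and 54.9, 46.4 and 49.3 CPM in RF.Ctrl mice, and at 32.0, 35.8 and 35.2 CPM in HF.SAAR and 44.4, 44.6 and 42.0 CPM in RF.SAAR mice. The mice of each diet were apart for both genes. Neu1, also lysosomal, stood at 0.33 (SE 0.074, padj 0.192).

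Of 3 metallothioneins, which bind metals, 2 had a log2 fold change above 0 and none was called. Mt1 and Mt2 had log2 fold changes of 1.25 (SE 0.30, padj 0.275) and 1.43 (SE 0.40, padj 0.499), and Mt3 of -0.27 (SE 0.49, padj 0.989) at a mean of 0.461 CPM in HF and 0.568 CPM in RF mice. Mt1 was at 88.8, 112 and 110 CPM in HF.SAAR and 34.0, 38.4 and 29.4 CPM in RF.SAAR mice, and overlapped in Ctrl mice at 20.5, 46.1 and 26.2 CPM in HF.Ctrl and 27.6, 8.51 and 15.1 CPM in RF.Ctrl mice.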
